A study of Mus musculus with 10 samples.

Results

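Genes of the hemidesmosome and of the epithelial basement membrane were followed here in the first pharyngeal arch (PA1) of mouse embryos that lack the transcription factor *Grhl2*. They were *Lama3* and *Lamb3*, *Itga6* and *Itgb4*, *Col17a1*, *Dst* and *Plec*, and *Cd151*. They were chosen by name, for the complex they belong to, and they are 8 of the 22114 protein-coding genes in the count table. All 8 were among the 14561 genes that reached the expression minimum of 10 counts in at least 1 arch. The arches came from male embryos at E10.5 of strain C57BL/6 as labelled, from a line back-crossed to C57BL/6J. The 5 wild-type embryos were compared with 5 *Grhl2-/-* embryos, which were homozygous for a germline null allele carried by every cell of the embryo. Each embryo gave 1 library, and controls were littermates where the study could arrange it. PA1 is the bud that forms the jaws and palate, with a core of mesenchyme under a thin epithelial coat, and the whole arch was sequenced. In such bulk RNA, fewer epithelial cells and less RNA per epithelial cell cannot be told apart.

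Hemidesmosomes rivet the basal side of an epithelium to the basement membrane. A laminin that contains the α3 and β3 chains is laid down outside the cell and bound by integrin α6β4, which is held in the membrane beside collagen XVII and the tetraspanin CD151, and plectin and the epithelial form of dystonin tie these receptors to keratin filaments. In an embryonic epithelium such as that of PA1 these junctions are still forming, and several of the genes are also used outside epithelia, since integrin α6 pairs with integrin β1 in endothelial and neural cells as well, and dystonin has neural and muscle isoforms.

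*Grhl2* itself had a mean of 35.6 ± 3.29 CPM in wild-type arches and of 4.53 ± 1.45 CPM in *Grhl2-/-* ones (SD, n = 5 each). CPM are counts scaled to the TMM-normalized size of the library. Reads were still counted on *Grhl2* in every *Grhl2-/-* arch, between 81 and 178 of them, and the counts do not show from which part of the gene they come. The log2 fold change of *Grhl2* was -3.02, with an FDR of 2.67e-06 in limma-voom. Arches held between 22188454 and 28596428 reads on protein-coding genes in wild-type and between 25658389 and 28801378 in *Grhl2-/-*.

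The members did not move as one. *Lamb3* and *Itgb4* fell and *Itga6* rose at FDR below 0.01 by limma-voom, and *Lama3*, *Col17a1*, *Dst*, *Plec* and *Cd151* did not pass this test. Among all genes tested, 1.09% were called lower and 0.879% higher, 1.96% in all. At FDR below 0.05, *Cd151* was higher as well, which gave 2 members lower and 2 higher, where 3.87% and 3.84% of all genes passed, 7.71% in all. The median log2 fold change of the 8 was 0.14, beside 0.01 over all 14561 genes. CPM ranges of the genotypes did not overlap for 4 members, lower for *Lamb3* and *Itgb4* and higher for *Itga6* and *Cd151*, where 4.66% of all genes were lower and 4.22% higher without overlap, 8.88% in all.

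**Figure D1:**
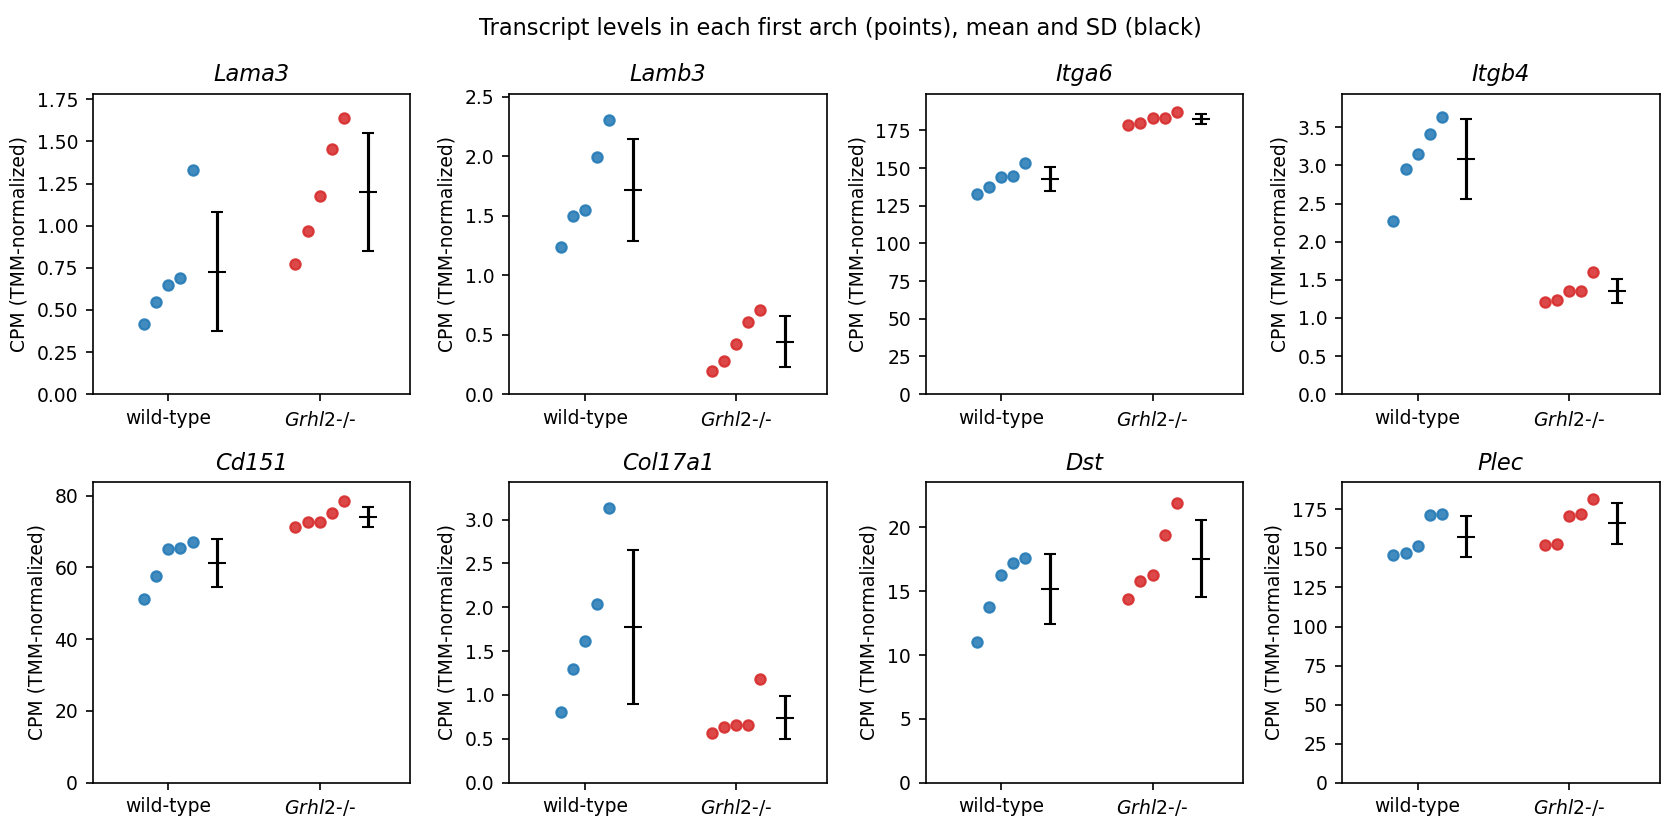
Level of each member in CPM (linear axis from 0), with 1 point per arch, sorted by value within a genotype, and the mean and SD in black (n = 5 per genotype). The *Grhl2-/-* points of *Lamb3* and *Itgb4* lie below all wild-type points, those of *Itga6* and *Cd151* lie above them, and those of the other 4 genes overlap.

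Since GRHL2 binds DNA, promoter sequence was read around RefSeq starts on GRCm38.p6. It was read for only 4 of the 8 members, which were *Lamb3*, *Col17a1*, *Dst* and *Cd151*. The letters AACCGGTT, the GRHL binding motif, occur in 48 of 32851 windows of 300 bases around annotated starts (0.146%) and in none of the windows of these 4 genes. The looser AACNNGTT, which includes the first and like it reads the same on both strands, occurs in 4.20% of windows, and among the members in 1 window, at position -59 from a start of *Cd151*. Shown 5′ to 3′ on the gene strand are the 250 bases before a start of the called gene *Lamb3*, the first of 2 windows read for it (chr1:193301744-193301993, plus strand) and before the start of *Cd151* that has the match (chr7:141467112-141467361, plus strand), with the match to AACNNGTT in capitals.
Lamb3: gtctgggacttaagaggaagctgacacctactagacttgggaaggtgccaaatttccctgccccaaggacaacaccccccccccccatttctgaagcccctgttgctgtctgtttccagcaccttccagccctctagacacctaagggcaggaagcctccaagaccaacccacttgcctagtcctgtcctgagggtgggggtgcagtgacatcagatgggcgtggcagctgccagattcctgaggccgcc
Cd151: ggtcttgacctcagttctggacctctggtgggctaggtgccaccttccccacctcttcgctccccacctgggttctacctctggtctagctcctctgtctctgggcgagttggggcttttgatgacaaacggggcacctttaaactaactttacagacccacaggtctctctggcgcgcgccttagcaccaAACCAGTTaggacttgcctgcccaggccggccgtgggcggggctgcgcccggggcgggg
The *Lamb3* stretch holds neither set of letters, and the match in the *Cd151* stretch describes sequence only. No binding was measured in these samples.

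*Lamb3* (chromosome 1, 193207699 to 193343878, GRCm38, plus strand) encodes the laminin β3 chain. Its level in the wild-type arches was 2.0 CPM in WT1-566, 1.55 in WT1-568, 1.5 in WT3-588, 1.24 in WT5-566 and 2.30 in WT8-568. In the *Grhl2-/-* arches it was 0.606 CPM in KO1-588, 0.194 in KO1-628, 0.277 in KO2-566, 0.712 in KO2-568 and 0.425 in KO3-604. Every *Grhl2-/-* arch was below every wild-type arch. The mean was 1.72 ± 0.427 CPM in wild-type arches and 0.443 ± 0.217 CPM in *Grhl2-/-* ones (SD over 5 arches each). The fitted log2 fold change was -2.0 (SE 0.327, 95% confidence interval -2.71 to -1.28) with an FDR of 0.00506 in limma-voom. These values rest on 34 to 57 reads per wild-type arch and 5 to 20 per *Grhl2-/-* arch. When 1 arch was left out, the log2 fold change of *Lamb3* stayed between -2.20 and -1.77. FDR was then between 0.0111 and 0.0159 without any of WT1-566, WT1-568, WT3-588, WT8-568, KO1-628, KO2-566 or KO3-604, and at or below 0.00671 without any of the other 3.

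*Lama3* (chromosome 18, 12333819 to 12583013, plus strand) encodes the α3 chain of the same laminin. Its wild-type levels were 0.545 CPM in WT1-566, 1.33 in WT1-568, 0.418 in WT3-588, 0.691 in WT5-566 and 0.646 in WT8-568. The *Grhl2-/-* levels were 1.18 CPM in KO1-588, 0.969 in KO1-628, 1.45 in KO2-566, 1.64 in KO2-568 and 0.772 in KO3-604. The groups overlapped through WT1-568, which was above 3 of the *Grhl2-/-* arches. The log2 fold change was 0.78 (95% confidence interval 0.10 to 1.45) with an FDR of 0.130 in limma-voom, so *Lama3* was not called. It was the least covered member in wild-type arches, with 12 to 37 reads, and 1.83% of its exon bases lie opposite an antisense transcript.

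The ratio of these laminin chain transcripts differed between genotypes. The log2 ratio of *Lama3* to *Lamb3* was between -1.83 and -0.21 in wild-type arches and between 0.83 and 2.32 in *Grhl2-/-* arches, a difference of 2.79 or 6.92-fold. It had p = 0.00794 in the exact two-sided permutation test over 252 assignments of arches, which is the smallest p that test can give, and 0.0159 after adjustment over the 6 ratios tested, of which 4 are given here. The ranges of the genotypes did not overlap.

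*Itgb4* (chromosome 11, 115974709 to 116008412, plus strand) encodes integrin β4, the chain whose long cytoplasmic tail binds plectin. It was 3.63 CPM in WT1-566, 2.95 in WT1-568, 2.27 in WT3-588, 3.42 in WT5-566 and 3.15 in WT8-568. In the *Grhl2-/-* arches it was 1.36 CPM in KO1-588, 1.36 in KO1-628, 1.21 in KO2-566, 1.6 in KO2-568 and 1.24 in KO3-604. The *Grhl2-/-* levels were tightly grouped, and the lowest wild-type arch stood above the highest of them. The mean fell from 3.08 ± 0.526 to 1.35 ± 0.154 CPM, a log2 fold change of -1.15 (SE 0.167, 95% confidence interval -1.52 to -0.79, FDR 0.00221 in limma-voom). The values rest on 65 to 94 reads per wild-type arch and 32 to 45 per *Grhl2-/-* arch, and 7.66% of the exon bases lie opposite a noncoding transcript.

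*Itga6* (chromosome 2, 71745616 to 71858416, plus strand) encodes integrin α6, the only partner with which β4 forms a receptor. It was 132.9 CPM in WT1-566, 144.6 in WT1-568, 153.7 in WT3-588, 137.4 in WT5-566 and 144.1 in WT8-568. The *Grhl2-/-* levels were 180.0 CPM in KO1-588, 183.0 in KO1-628, 187.3 in KO2-566, 178.8 in KO2-568 and 183.0 in KO3-604. All 5 *Grhl2-/-* arches were above all 5 wild-type arches. The mean rose from 142.5 ± 7.92 to 182.4 ± 3.29 CPM, a log2 fold change of 0.36 (SE 0.0407, 95% confidence interval 0.27 to 0.45, FDR 0.000461 in limma-voom). The calls of *Itga6* and *Itgb4* held with any 1 arch left out.

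The chains of the α6β4 receptor thus moved in opposite directions. The log2 ratio of *Itga6* to *Itgb4* CPM was between 5.18 and 6.07 in wild-type arches and between 6.79 and 7.25 in *Grhl2-/-* arches. The difference of 1.53, or 2.88-fold, had p = 0.00794 in the exact two-sided permutation test and 0.0159 after adjustment over 6 ratios. Per kb of exon, *Itga6* transcripts exceeded *Itgb4* transcripts 36.1-fold in wild-type and 104.0-fold in *Grhl2-/-* arches (geometric means). Over the 10 arches the log2 levels of *Itga6* and *Itgb4* had a Pearson r of -0.992, to which the genotypes contribute, and after subtraction of the genotype means r was -0.917, the most negative of all pairs of members on both counts. The arches differed in depth and may differ in dissection, and the values are a description.

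**Figure D2:**
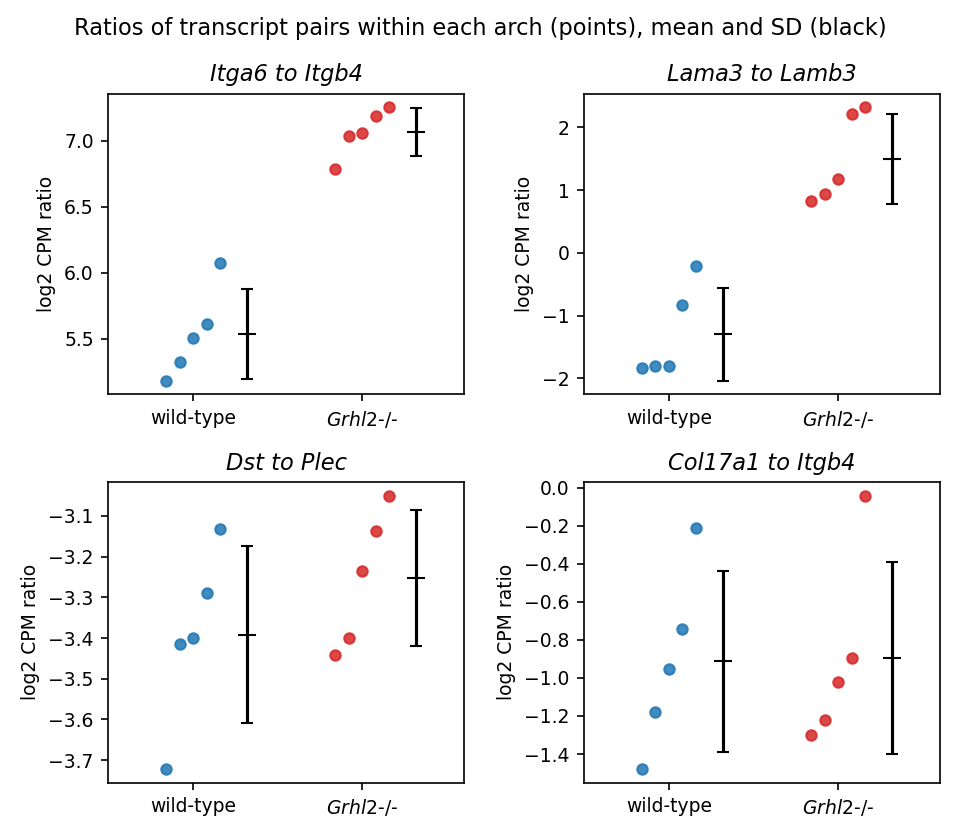
Log2 ratio of the CPM of transcript pairs within each arch, with 1 point per arch sorted by value, and the mean and SD in black (n = 5 per genotype; axes do not start at 0). The genotypes separate fully for *Itga6* to *Itgb4* and *Lama3* to *Lamb3* and overlap for *Dst* to *Plec* and *Col17a1* to *Itgb4*.

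*Itga6* was the abundant chain in both genotypes, and transcripts of endothelial and neural cells, which also use integrin α6, are given beside it. The integrin β1 chain *Itgb1*, the other partner of α6 and chosen for display after its values were seen, was 346.6 ± 7.61 CPM in wild-type and 379.4 ± 20.4 in *Grhl2-/-* arches (log2 fold change 0.13, FDR 0.0679 in limma-voom). It was not called, but every *Grhl2-/-* arch was above every wild-type arch, as for 4.22% of all genes tested. Of 8 endothelial markers, 0 were called (2 were higher at FDR below 0.05, as were 3.84% of all genes), and their summed level was 362.3 to 411.1 CPM in wild-type arches and 401.6 to 468.7 CPM in *Grhl2-/-* ones. *Pecam1*, a junction protein of endothelium, had an FDR of 0.0257 and *Kdr*, a receptor for vascular growth factor, one of 0.0305. All 8 sensory neuron markers had fitted log2 fold changes above 0, with a median of 1.96 and a range of 0.66 to 2.79, and 6 glial markers had a median of 0.86 and a range of -0.15 to 1.36, with 0 called in either list. These sizes rest on WT1-566 and WT1-568, without which the neuronal *Nefm* went from 2.26 to 0.25 and the glial *Sox10* from 1.36 to 0.03. Within genotypes, log2 *Itga6* had r = 0.388 with the mean log2 level of the neuronal markers, 0.338 with that of the glial and 0.337 with that of the endothelial markers, and -0.494 with mesenchyme and -0.673 with erythroid markers (10 arches, a description). It was 0.32 with the simple epithelial keratins, 0.0819 with the epithelial markers and -0.223 with muscle progenitor markers. The parts of endothelial, neuronal and glial cells in the level of *Itga6* were not tested.

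*Cd151* (chromosome 7, 141467392 to 141471473, plus strand) encodes the tetraspanin that associates with integrins α3β1 and α6β4, and its promoter held the match to AACNNGTT shown above. Its wild-type levels were 51.1 CPM in WT1-566, 57.7 in WT1-568, 65.1 in WT3-588, 65.3 in WT5-566 and 67.1 in WT8-568. The *Grhl2-/-* levels were 72.8 CPM in KO1-588, 71.3 in KO1-628, 75.2 in KO2-566, 72.8 in KO2-568 and 78.5 in KO3-604. The groups did not overlap, and the mean was 61.3 ± 6.72 CPM in wild-type and 74.1 ± 2.81 in *Grhl2-/-* arches. The log2 fold change of 0.28 (SE 0.0692, 95% confidence interval 0.13 to 0.43) had an FDR of 0.0351 in limma-voom and was not called at 0.01. Noncoding transcript lies opposite 7.04% of the exon bases of *Cd151*. The wild-type arches with the lowest *Cd151*, WT1-566 and WT1-568, also held the fewest sensory neuron transcripts. The summed level of 8 sensory neuron markers was 47.3 CPM in WT1-566 and 41.1 in WT1-568, and between 310.4 and 1209 CPM in the other 8 arches. Within genotypes, log2 *Cd151* had r = 0.83 with the mean log2 level of these markers and 0.82 with that of 6 glial markers (10 arches, a description). Both r pool the genotypes after subtraction of their means, and both include WT1-566 and WT1-568. The mean log2 level of the neuronal markers was 1.28 and 0.76 there, and 5.36 to 6.06 in the other wild-type arches. Neither r was computed without that pair or for each genotype alone. Without WT1-566 and WT1-568 the log2 fold change of *Cd151* was 0.16, with an FDR of 0.153.

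**Figure D3:**
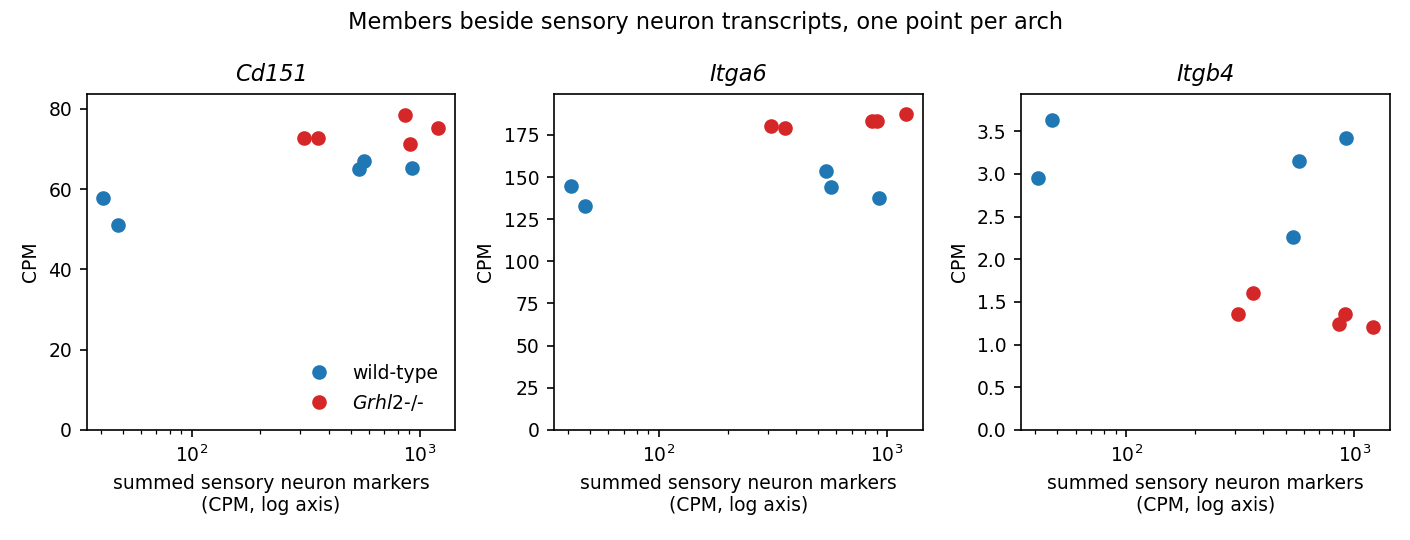
Level in CPM (linear axis from 0) of *Cd151*, *Itga6* and *Itgb4* against the summed CPM of 8 sensory neuron markers (log axis), with 1 point per arch. WT1-566 and WT1-568, at 47.3 and 41.1 CPM of markers, lie to the left of the other 8 arches and are the lowest for *Cd151*, but not set apart from the other wild-type arches for *Itga6* or *Itgb4*.

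The same pair of wild-type arches was also left out of the test of the members. Without them, *Itga6* was still called higher (log2 fold change 0.32, FDR 0.00805 in limma-voom). *Itgb4* had a log2 fold change of -1.11, with an FDR of 0.0179, and *Lamb3* one of -1.97, with an FDR of 0.0328, and neither was called any longer. With 3 wild-type arches against 5, all genes called lower numbered 90 and those called higher 19.

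*Col17a1* (chromosome 19, 47646344 to 47692094, minus strand) encodes collagen XVII, a collagen that spans the membrane and reaches into the lamina. It was 3.13 CPM in WT1-566, 1.29 in WT1-568, 0.802 in WT3-588, 2.04 in WT5-566 and 1.62 in WT8-568. In *Grhl2-/-* arches it was 0.571 CPM in KO1-588, 0.659 in KO1-628, 1.18 in KO2-566, 0.640 in KO2-568 and 0.656 in KO3-604. Wild-type arches spread widely, and KO2-566 stood above WT3-588. Within genotypes, log2 *Col17a1* had r = 0.871 with the mean log2 level of the mesenchyme markers, -0.619 with the epithelial markers and -0.779 with the simple keratins (10 arches, a description). The log2 fold change of -1.10 had a 95% confidence interval of -1.91 to -0.30 and an FDR of 0.0853 in limma-voom, so *Col17a1* was not called. Its ratio to *Itgb4* differed by 0.02 (log2) between genotypes (p = 0.952, exact permutation test, and the same after adjustment).

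The plaque genes did not pass the test, and their ranges overlapped widely. *Plec* (chromosome 15, 76170974 to 76232574, minus strand), which encodes the linker plectin, was between 145.9 and 171.9 CPM in wild-type arches and between 152.3 and 181.5 CPM in *Grhl2-/-* ones. The log2 fold change of *Plec* was 0.08 with a 95% confidence interval of -0.07 to 0.22 (FDR 0.479 in limma-voom). *Dst* (chromosome 1, 33908225 to 34308661, plus strand), which encodes dystonin, was between 11.04 and 17.6 CPM in wild-type arches and between 14.4 and 21.9 CPM in *Grhl2-/-* ones. The log2 fold change of *Dst* was 0.20 with a 95% confidence interval of -0.12 to 0.51 (FDR 0.383 in limma-voom). Of the exon bases of *Plec*, 1.13% are shared with its neighbour *Parp10* on the same strand, and 3.63% of those of *Dst* lie opposite noncoding transcripts. The counts do not separate the epithelial isoform of dystonin from its neural and muscle isoforms, since a single sum stands for the whole gene. Of 3 identifiers named *Dst* in the table, 2 had 0 reads in all arches. The log2 ratio of *Dst* to *Plec* differed by 0.14 between genotypes (p = 0.286, exact permutation test, and 0.343 after adjustment).

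Divided by exon length, the members fell into 2 tiers. In wild-type arches the mean was 22.4 CPM per kb for *Cd151*, 15.8 for *Itga6* and 8.70 for *Plec*, with ranges that did not meet. The other 5 were all below 1 CPM per kb, at 0.440 for *Itgb4*, 0.369 for *Dst*, 0.296 for *Col17a1*, 0.260 for *Lamb3* and 0.0676 for *Lama3*. Ranges of neighbours in this lower tier overlapped for *Itgb4*, *Dst*, *Col17a1* and *Lamb3*, while *Lama3* lay below *Lamb3* in every wild-type arch. In *Grhl2-/-* arches the first 3 kept their order, at 27.0, 20.2 and 9.16 CPM per kb. *Dst* was then above *Itgb4* (0.427 and 0.193) and *Lama3* above *Lamb3* (0.112 and 0.0670). Each merged exon length is that of all annotated isoforms together, so isoform use shifts these levels.

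**Figure D4:**
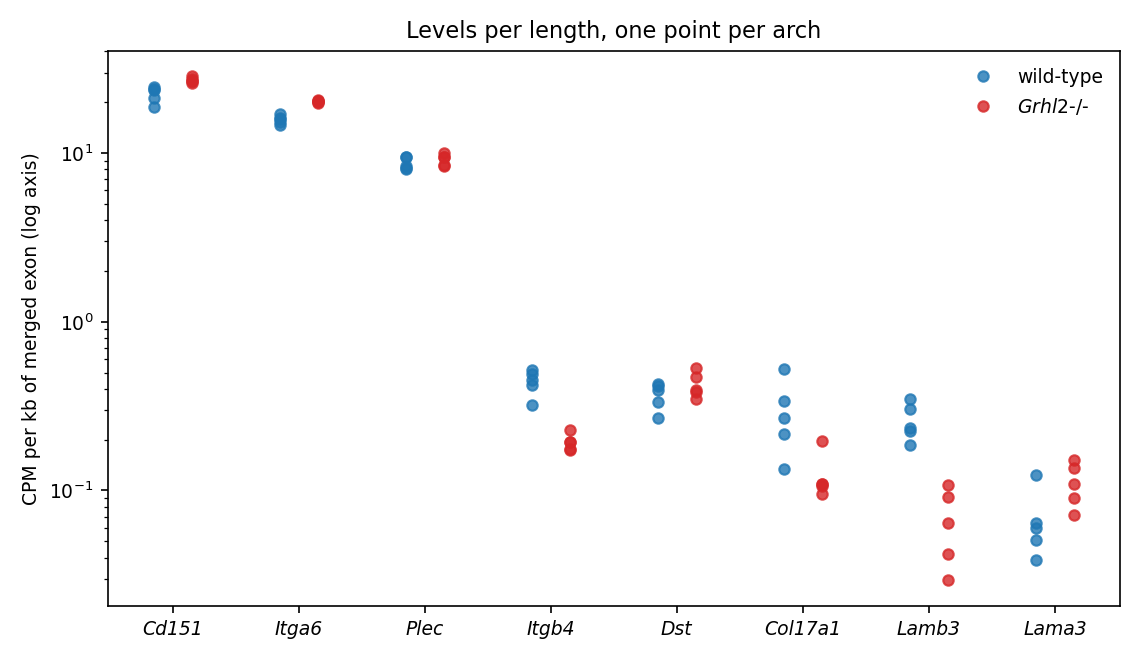
Level per kb of merged exon (CPM per kb, log axis) of the members, ordered by the wild-type mean, with 1 point per arch (5 per genotype). *Cd151*, *Itga6* and *Plec* lie above 8 CPM per kb in every arch, and the other members lie below 1.

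Epithelial markers are given beside the falls of *Lamb3* and *Itgb4*, since some of them fell and others did not. Over all genes tested, 1.09% were called lower and 0.879% higher. The summed level of 10 epithelial markers was 341.1 to 455.3 CPM in wild-type arches and 182.8 to 278.7 CPM in *Grhl2-/-* ones. Of the 10, 5 were called lower by limma-voom and 0 higher, with log2 fold changes of -2.47 for the adherens junction protein *Cdh1*, -2.51 for the adhesion molecule *Epcam*, -1.87 for the splicing regulator *Esrp1*, and -1.97 and -1.63 for the tight junction proteins *Cldn6* and *Cldn7*. The other 5 were not called, among them the simple epithelial keratins *Krt8* (-0.40, FDR 0.203) and *Krt18* (-0.07, FDR 0.848, with a sign that changed when single arches were left out). The summed level of *Krt8*, *Krt18* and *Krt19* was 94.7 to 151.8 CPM in wild-type arches and 80.4 to 145.7 CPM in *Grhl2-/-* ones. Within genotypes, the mean log2 level of the 10 epithelial markers had r = 0.665 with *Lamb3* and 0.0443 with *Itgb4* (10 arches, a description). The part of the amount of epithelium in the levels of *Lamb3* and *Itgb4* was not tested. Of the other cell type lists, mesenchyme had 1 gene of 8 called (*Msx1*, a homeobox gene of arch mesenchyme, at -0.66, FDR 0.00595 in limma-voom, which passed 0.01 in 4 of 10 cases with 1 arch left out, with an FDR of up to 0.0183, and was 0.0203 without both WT1-566 and WT1-568) and summed to 2385 to 2977 CPM in wild-type arches and 2252 to 2756 CPM in *Grhl2-/-* ones. The fitted log2 fold changes of these 8 had a median of -0.17 and a range of -0.66 to 0.64, with 7 below 0. The highest was *Vim*, the vimentin gene, at 290.1 ± 82.4 CPM in wild-type and 443.4 ± 73.4 in *Grhl2-/-* arches (FDR 0.0535 in limma-voom).

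Of 8 sensory neuron, 6 glial, 6 muscle progenitor and 5 erythroid markers, 0 were called by limma-voom, although the fitted values of the sensory neuron and the erythroid list all lay on one side of 0. The sensory neuron values were above 0, with *Prph* (a peripheral neuron filament) at 2.79 (FDR 0.110) and *Nefm* (a neurofilament) at 2.26 (FDR 0.163) on the log2 scale. Their summed level was 41.1 to 924.9 CPM in wild-type arches and 310.4 to 1209 in *Grhl2-/-* ones. Without WT1-566 and WT1-568, *Prph* was at 0.77 (FDR 0.475) and *Nefm* at 0.25 (FDR 0.807). The glial transcription factors *Sox10* and *Foxd3* were at 1.36 (FDR 0.204) and 1.27 (FDR 0.222). Without both of those arches they were at 0.03 (FDR 0.972) and 0.07 (FDR 0.945), and without WT1-568 alone at 0.77 and 0.81. The summed glial markers reached 46.1 to 200.8 CPM in wild-type arches against 77.4 to 228.7. All 5 erythroid markers were below 0, with a median of -0.33, among them the embryonic globins *Hbb-y* at -0.35 (FDR 0.114) and *Hbb-bh1* at -0.33 (FDR 0.131), and their sum was 3627 to 6162 CPM in wild-type arches against 2855 to 3862. Muscle progenitor markers had a median of -0.07, with the cardiac actin *Actc1* at 1.6 (FDR 0.0202) and the arch muscle factor *Tcf21* at -0.89 (FDR 0.0689). The part of these cell types in the levels of the members was not tested.

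The other basement membrane and adhesion genes also included calls in both directions. Of 50 such genes described, 4 were lower and 7 higher at FDR below 0.01 by limma-voom, with a median log2 fold change of 0.13. Over all genes tested, 1.09% were lower and 0.879% higher. The 50 include the 4 keratins of basal epithelium given below. Among the 8 laminin chains in this set, 3 chains of the widespread laminins were higher and 0 lower, *Lamb1* by 0.24 (FDR 0.00870), *Lamb2* by 0.39 (FDR 0.00717) and *Lamc1* by 0.33 (FDR 0.00702) on the log2 scale. The median over the 8 was 0.32. These 3 calls were close to the threshold. With 1 arch left out the FDR reached 0.0272 for *Lamb1*, 0.0232 for *Lamb2* and 0.0246 for *Lamc1*, and passed 0.01 in 3, 1 and 3 of 10 cases.

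Of 16 scaffold genes, 4 were higher and 0 lower, with a median of 0.20, where 0.879% of all genes tested were higher and 1.09% lower. The collagen IV chains *Col4a5* and *Col4a6* rose by 0.49 (FDR 0.000272) and 1.06 (FDR 0.000342), the cross-linker *Nid2* by 0.34 (FDR 0.00117), and *Sparc*, a collagen-binding matrix protein, by 0.57 (FDR 3.13e-05), on the log2 scale in limma-voom. Each of these 4 calls held with any 1 arch left out, but without both WT1-566 and WT1-568 *Nid2* was at 0.30 with an FDR of 0.0228 and was no longer called. Genes of the Fraser complex, which anchors embryonic epithelium to the dermis, had 0 of 4 called, with *Frem2* at 0.64 (FDR 0.010) and *Grip1*, an adaptor for its assembly, at 0.33 (FDR 0.0154).

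Of 18 other receptors and adaptors, 3 were lower and 0 higher, with a median of 0.04, where 1.09% of all genes tested were lower and 0.879% higher. *Fermt1*, the epithelial kindlin that activates β1 integrins, fell from a mean of 44.9 ± 4.03 CPM to one of 9.54 ± 1.45 (-2.24 on the log2 scale, FDR 1.83e-06 in limma-voom). *Exph5*, a Rab27 effector of keratinocytes, fell by 1.27 (FDR 0.000172) and *Itgb6*, an epithelial integrin chain, by 1.62 (FDR 0.00136) on the log2 scale. Each of the 3 held with any 1 arch left out, but without both WT1-566 and WT1-568 *Itgb6* was at -1.50 with an FDR of 0.0122 and was no longer called. *Dag1*, which encodes the laminin receptor dystroglycan, was 202.8 ± 15.9 CPM in wild-type and 199.0 ± 22.4 in *Grhl2-/-* arches, and *Bcam*, a laminin α5 receptor, was 113.3 ± 13.4 and 101.7 ± 21.4 CPM.

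Of the 4 keratins of basal epithelium that hemidesmosomes can hold, *Krt5* was lower, from 0.637 ± 0.233 to 0.0869 ± 0.0512 CPM (FDR 0.00556 in limma-voom). *Krt5* was below 1 CPM on average in both genotypes, and its FDR was between 0.0105 and 0.0174 in 8 of 10 cases with 1 arch left out. *Krt14*, which pairs with *Krt5*, was 9.60 ± 1.80 CPM in wild-type and 11.9 ± 1.84 in *Grhl2-/-* arches (FDR 0.144). *Krt15* was 1.64 ± 0.373 and 0.577 ± 0.255 CPM (FDR 0.0124), without overlap.

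**Figure D5:**
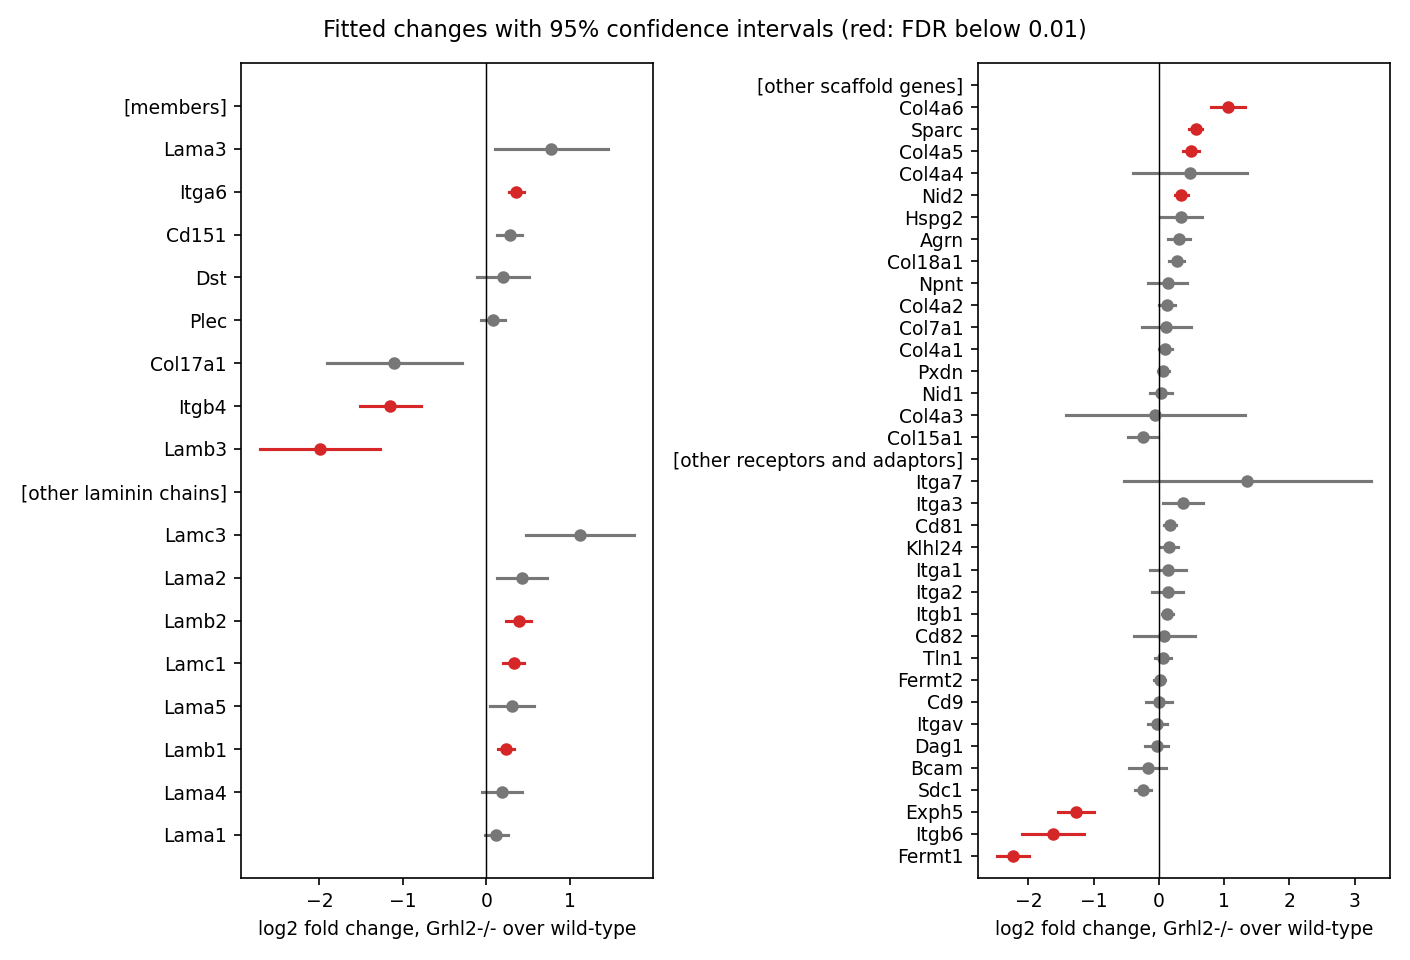
Fitted log2 fold change, *Grhl2-/-* over wild-type (linear axis), with its 95% confidence interval for the members, the other laminin chains, the scaffold genes and the other receptors and adaptors (limma-voom, 5 arches per genotype). Red points passed FDR 0.01, and the called members lie on both sides of 0.

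Genes whose level ran most like that of a called member were found by Pearson r of log2 CPM over the 10 arches, among 12691 genes of at least 1 CPM on average. For *Lamb3* they were *Tmem29* (r = 0.984) and *Epha1* (0.974), for *Itgb4* *Aim1* (0.970) and *Irx4* (0.963), and for *Itga6* *Tagln* (0.973) and *Cpne5* (0.971). The sizes of change were not alike, since r does not measure size. The log2 fold change was -0.16 for *Tmem29* and -1.25 for *Epha1*, beside -2.0 for *Lamb3*. It was -1.52 for *Aim1*, -1.57 for *Irx4*, 2.50 for *Tagln* and 0.69 for *Cpne5*. With genotype means subtracted, r was 0.923 and 0.868 for *Lamb3*, 0.648 and 0.642 for *Itgb4* and 0.654 and 0.696 for *Itga6*. The genotype contrast enters each r over the 10 arches, and the depth of the libraries differed, so these are descriptions.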

How the data were processed

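Reads from stranded, ribosome-depleted total RNA of PA1 were aligned by the authors to GRCm38 with STAR and counted per gene with featureCounts. The authors deposited raw counts for 22114 protein-coding genes, without normalization, and the annotation release is not given in the sources used here, nor is the strand setting beyond the word Reverse in the table's name. Submitters' notes list edgeR 3.18.1 and limma 3.32.7. A second table holds the authors' own comparison (fold changes, p-values) and was not used.

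Genes that reached 10 counts in any arch were normalized by TMM and tested with limma-voom (limma 3.58.1, edgeR 4.0.16, R 4.3.3), genotype being the only term, with Benjamini-Hochberg adjustment over all 14561 genes and a threshold of 0.01. For ratios, a prior count of 0.5 was added. Coordinates and exon lengths are from GENCODE M21. The chi-square per gene between arches of a genotype was 6.94 to 25.1 over 20 pairs, so no pair matched within sampling noise. Methods were tested on simulated data. Members, lists and tests were chosen with earlier results of these data known. The values of 1 gene are not reported here. Named are the members, *Grhl2*, list genes past the threshold (otherwise those with the 2 smallest FDR values) and the 2 genes most like each called member. *Itgb1*, *Dag1*, *Bcam*, *Krt14*, *Krt15* and *Vim* were added after their values were seen. The alternatives tried were DESeq2 1.42.0, the quasi-likelihood test of edgeR, voomWithQualityWeights, library size alone, RLE size factors, a filter of 1 count in any arch, filterByExpr, a prior count of 2, the label number as a block, FDR 0.05, and leaving out each arch.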

Additional observations from a re-analysis of the deposited data

Results flagged for a closer look

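In the *Grhl2-/-* group, *Col17a1* in KO2-566 stood apart from the other 4 arches. It was 1.18 CPM there, where the next highest arch had 0.659, and this gap made up 0.855 of the whole range of the group, against a 95% critical value of 0.71 for 5 samples. Of 26 groups examined in this way 1 was flagged, where chance gives about 1.3.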

How the results depend on the processing

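Calls of the members did not change under edgeR's quasi-likelihood test, library size alone, RLE size factors, either other filter or voomWithQualityWeights. With DESeq2, *Cd151* was also called (log2 fold change 0.27, FDR 0.00573), and at FDR 0.05 it was called at 0.28. Genes called lower, 158 here, numbered 553 with DESeq2, 564 at FDR 0.05 and 90 without WT1-566 and WT1-568, a setting chosen after seeing the data, and 110 to 249 with 1 arch left out (249 without KO1-588). Genes called higher, 128 here, numbered 520 with DESeq2, 204 with voomWithQualityWeights, 559 at FDR 0.05, 19 without both arches and 42 to 143 with 1 arch left out. Members called lower, 2 here, numbered 0 without both arches and 1 to 2 with 1 left out. Members called higher, 1 here, numbered 2 with DESeq2 and at FDR 0.05. The other adhesion genes called lower, 4 here, numbered 2 without both arches, and those called higher, 7 here, numbered 13 with DESeq2, 13 at FDR 0.05, 3 without both arches and 4 to 7 with 1 left out. Without both arches, *Lamb3* was at -1.97 (FDR 0.0328) and *Itgb4* at -1.11 (0.0179) in limma-voom. With 1 arch left out, *Lamb3* was at -2.20 to -1.77, the *Col17a1* to *Itgb4* ratio differed by -0.20 to 0.19, and *Krt18* was at -0.202 to 0.0331. Of these, the ratio of *Col17a1* to *Itgb4* and *Krt18* changed sign. The cause of these shifts was not tested. Fits with arches left out had fewer samples, and the other settings used all 10 arches.

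Embryos of both genotypes share numbers in their labels, whose meaning is not stated. Deviations from genotype means correlated at 0.0883 on average over 5 pairs of equal number (-0.364 to 0.54) and at -0.0191 over 20 of unequal number, which is not a shared deviation in every pair, so the block serves as an alternative only and whether the number marks a shared litter is unknown. With the number as a replicate block, 69 genes were called lower and 60 higher, 94 of them among the 286 called here. In that fit 0 members were called lower and 0 higher, and 2 and 3 of the other adhesion genes, which were *Fermt1*, *Exph5*, *Col4a5*, *Col4a6* and *Sparc*. These were also the ones called without both arches. *Nid2* had an FDR of 0.0110 and *Itgb6* one of 0.0265 under the replicate block in limma-voom. Under the replicate block *Lamb3* was at -1.64 (FDR 0.0467 in limma-voom), *Itga6* at 0.35 (0.0119), *Itgb4* at -1.10 (0.0242) and *Krt18* at 0.027, and no other member changed its call.

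*Lama3*, *Lamb3*, *Itgb4* and *Col17a1* rest on at most 94 reads per arch, which limits their precision.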
